A study of Mus musculus with 4 samples.

Results

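This account describes 33 genes of endoplasmic reticulum (ER) protein folding and of the unfolded protein response in mouse pancreatic islets with and without Tspan7. The members were taken by symbol from a fixed list. All 33 were found among the 52636 rows of the count table, and all 33 passed the low-count filter that left 16924 genes for testing. RNA was sequenced from whole islets (clusters of endocrine cells in the pancreas), with 2 control libraries from wild-type mice and 2 libraries from Tspan7 knockout mice. The knockout genotype is written Tspan7y/-, a male with no intact copy of this X-linked tetraspanin gene. The series' design text speaks of a knockdown instead. The sources used here name no strain, age, treatment or conditional driver for either group, and they do not tie libraries to individual mice. Each p-value thus rests on the scatter among 4 libraries, with each gene's scatter drawn towards that of other genes. Part of this scatter may be technical.

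Library totals ran from 7855665 to 9377220 counts. Levels are given as scaled CPM, counts divided by library size after trimmed-mean scaling of the libraries. Tspan7 counts were 1924 and 1795 in control islets but 3 and 2 in knockout islets, in the direction of the labels. It was the only gene with an adjusted p under 0.05. Endocrine markers were abundant in all 4 libraries, with 12 marker genes summing to between 25438 and 30689 scaled CPM. Markers of exocrine acinar cells differed strongly between libraries of a single group. The 16 acinar genes summed to 3551 and 83.4 scaled CPM in control replicates 1 and 2, and to 1598 and 7451 in knockout replicates 1 and 2. The 10 immediate-early genes, which respond within minutes to handling stress, summed to 1175 and 359 in control and to 811 and 2351 in knockout libraries. Both sums thus placed control replicate 2 lowest and knockout replicate 2 highest. The sum of the 12 endocrine markers had the same order over a narrower range. It was 29917 and 25438 in control and 25883 and 30689 in knockout replicates 1 and 2. The markers of other cell types had median log2 fold changes of -0.70 (7 macrophage genes), -0.60 (5 stellate and fibroblast genes), -0.21 (6 endothelial genes) and 0.02 (4 ductal genes), and 0 of them were called. At an unadjusted p under 0.05, 5 of the 7 macrophage genes were lower (1.96% of all genes), and in 6 of the 7 the knockout libraries were both lower than either control library (15.0%). The part of these cells in the members' values was not tested.

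Beta cells make insulin through the ER and depend heavily on its folding machinery. Unfolded protein in the ER is sensed by the membrane proteins Atf6, Ire1 (gene Ern1) and Perk (gene Eif2ak3). Atf6 and the transcription factor Xbp1, whose mRNA is spliced by Ire1, raise chaperones and the genes of ER-associated degradation. Perk slows translation and favours synthesis of Atf4, which raises Ddit3, Trib3, Ppp1r15a, Asns and Chac1. The members were therefore divided into 15 chaperones and folding enzymes, 7 degradation genes, 5 genes for the sensors, Xbp1 and Wfs1, and 6 genes of the Perk and Atf4 arm. The first 2 sets together form the chaperone arm of 22 genes. Gene counts do not separate spliced from unspliced Xbp1, and they do not show translation of Atf4.

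The promoters of some members carry elements by which these arms are known to be controlled, and they are shown as a property that the expression data did not supply. RefSeq promoter sequences on GRCm38.p6 (250 bases before to 50 bases after a start site) were matched by symbol to 29 of the 33 members. The ER stress response element (ERSE), searched on both strands as CCAAT and CCACG with 9 free bases between them, lay in the promoters of 9 of those 29 genes. It was present in 37 of all 27025 genes with a promoter, or 0.137%. All 9 genes belong to the chaperone arm, in which 10 other promoter-matched genes had no such match. Each site is printed in the element's own direction with 8 bases on either side, the element in capitals, and the strand and position of the stretch on GRCm38.p6.
Hspa5, chr2:34772017-34772051, plus strand: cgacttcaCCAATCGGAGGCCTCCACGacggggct
Hsp90b1, distal site, chr10:86705630-86705664, minus strand: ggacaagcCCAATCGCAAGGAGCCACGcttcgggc
Hsp90b1, proximal site, chr10:86705525-86705559, plus strand: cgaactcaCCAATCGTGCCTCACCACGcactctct
Calr, chr8:84847067-84847101, plus strand: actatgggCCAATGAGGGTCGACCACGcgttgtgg
Canx, chr11:50325792-50325826, minus strand: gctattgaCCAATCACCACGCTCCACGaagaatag
Pdia6, chr12:17266483-17266517, plus strand: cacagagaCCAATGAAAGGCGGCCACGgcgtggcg
Dnajc3, chr14:118937819-118937853, plus strand: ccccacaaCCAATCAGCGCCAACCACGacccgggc
Creld2, chr15:88819512-88819546, minus strand: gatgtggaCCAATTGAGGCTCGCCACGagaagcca
Syvn1, chr19:6046524-6046558, plus strand: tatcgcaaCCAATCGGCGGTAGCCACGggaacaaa
Derl3, chr10:75893234-75893268, minus strand: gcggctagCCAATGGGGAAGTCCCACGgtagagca

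Herpud1 and Dnajb11 held the related element ERSE-II, searched on both strands as ATTGG and CCACG with 1 free base between them and found in 12 of the 27025 genes (0.0444%). The core of the Atf4 and C/EBP composite element, searched as TGATGNAA on both strands, lay in 4 members, Asns, Chac1, Trib3 and Herpud1, against 4.51% of all genes. Herpud1 was the only member with elements of both kinds, and its promoter is shown for that reason, with the sites of Asns and Chac1 beside it. The Herpud1 stretch is on the gene's own strand, and the capitals mark the composite element (read here as its reverse complement) and then ERSE-II. Those of Asns and Chac1 are in the element's own direction.
Herpud1, chr8:94386309-94386395, plus strand: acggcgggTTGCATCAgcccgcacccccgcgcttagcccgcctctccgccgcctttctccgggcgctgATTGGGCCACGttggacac
Asns, chr6:7693217-7693240, minus strand: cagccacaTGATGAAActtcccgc
Chac1, chr2:119351041-119351064, minus strand: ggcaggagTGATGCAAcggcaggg

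The Xbp1 element TGACGTGG was found in no member promoter and in 0.714% of all genes. The cyclic AMP response element TGACGTCA, which shares its TGACGT with the Xbp1 element, lay in 1 member, Ppp1r15a, and in 2.03% of all genes. No stretch printed here holds a second of these elements apart from that of Herpud1. A match describes letters in a window and says nothing about binding in these islets.

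Per kilobase of exon, the most abundant of the 33 genes in control islets were 3 ER chaperones and folding enzymes, while other chaperone genes stood lower, down to Dnajb11 at 46.7 scaled CPM per kilobase. Hspa5, the ER Hsp70 chaperone BiP, stood at 902 scaled CPM per kilobase. Hsp90b1, the ER Hsp90 chaperone, followed at 765, and Pdia3, a disulphide isomerase of glycoprotein folding, at 501. At the other end were Derl3 at 14.2, Derl2 at 17.8 and Trib3 at 18.9, so that the 33 genes spanned a wide range of levels. Among the transcription factors and sensors, Atf4 stood at 145 and Xbp1 at 139, above Atf6 at 47.8, Ern1 at 45.6 and Eif2ak3 at 37.8 scaled CPM per kilobase. Neighbours in this order lie close together, and the mean of 2 libraries does not separate Atf4 from Xbp1 or Atf6 from Ern1. Exon lengths came from an annotation of another build, so these levels are approximate.

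**Figure D1:**
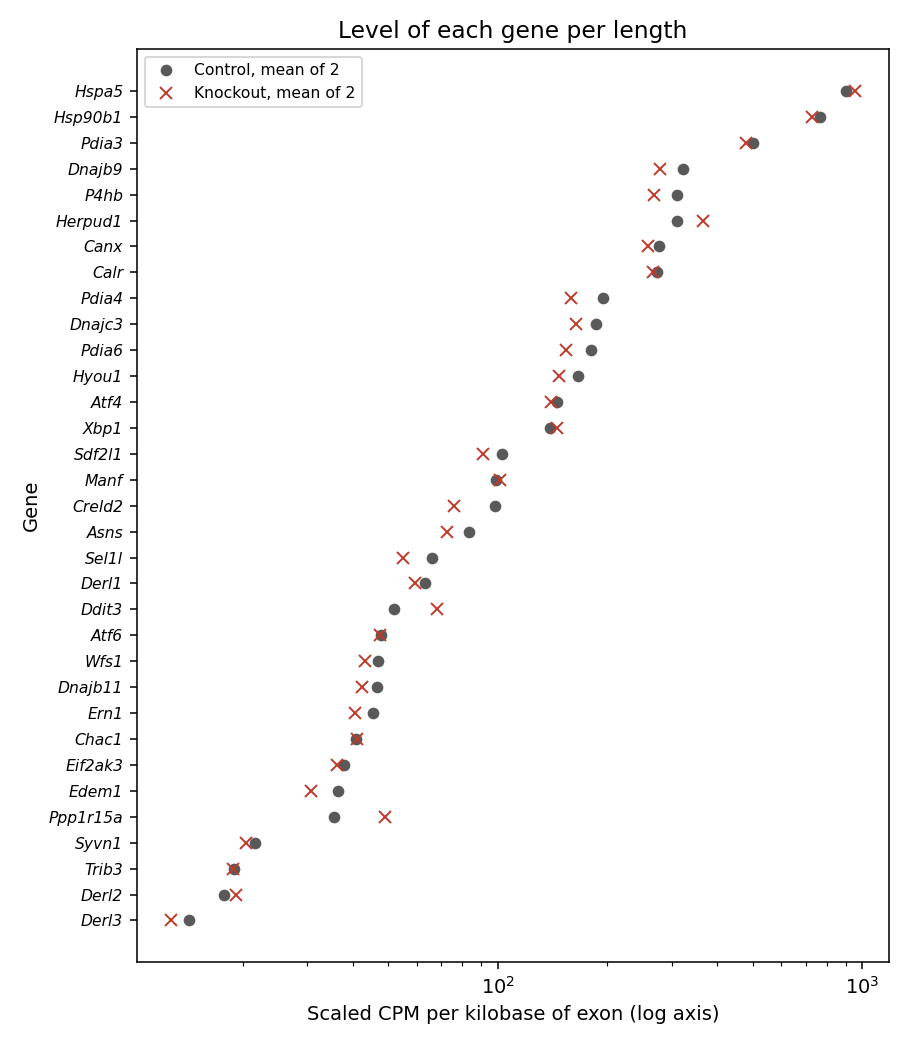
Mean scaled CPM per kilobase of exon (log axis) for each of the 33 genes, in control (circles) and knockout (crosses) islets, each a mean of 2 libraries, ordered by the control level. Hspa5 is at the top and Derl3 at the bottom in both groups, and the crosses of Herpud1, Ddit3 and Ppp1r15a lie to the right of their circles.

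None of the 33 genes passed the threshold of an adjusted p under 0.05 in edgeR's quasi-likelihood test over all 16924 genes, where 0.00591% passed. Their smallest adjusted p was 0.9997. At an unadjusted p under 0.05 there were 0 members higher and 1 lower (Creld2), against 1.55% and 1.96% of all genes (3.51% in either direction). DESeq2 and limma-voom called 0 members as well. Log2 fold changes of knockout against control ran from -0.37 to 0.46, with 25 negative and 8 positive values and a median of -0.09. The median over all genes tested was 0.003, with 49.4% negative. In simulated libraries of this design the test recovered 12% of genes changed 1.5-fold and 38% of those changed 2-fold, so small differences would be missed. The simulation set the scatter of a gene by its level alone and gave 133 calls, against 1 in these data. Its rates are therefore not the power for these 33 genes.

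**Figure D2:**
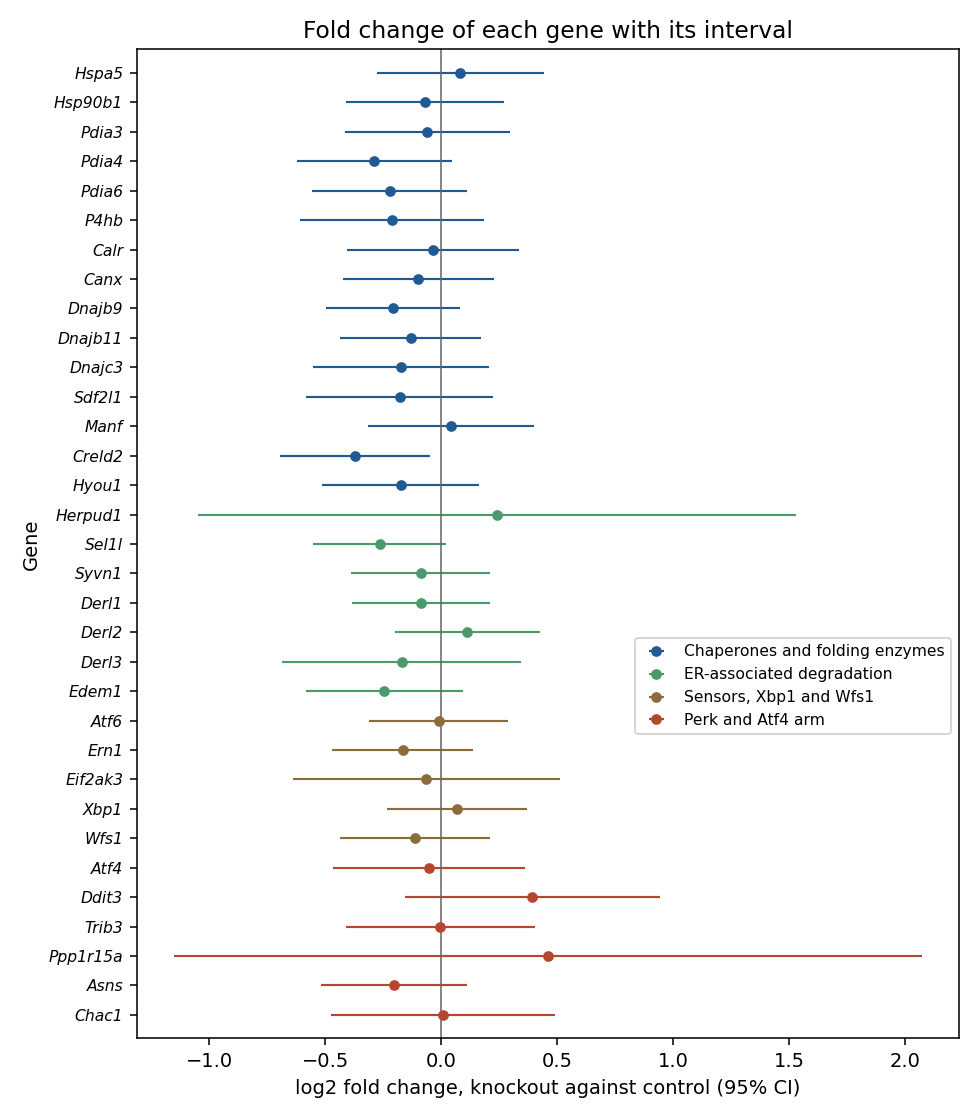
Log2 fold change of each of the 33 genes, knockout against control, with its 95% confidence interval from the quasi-likelihood fit on 2 libraries per group. The Creld2 interval alone excludes 0 before adjustment, and those of Herpud1 and Ppp1r15a are the widest.

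The chaperone arm had mostly negative values of small size. Of its 22 genes 18 had a negative log2 fold change, with a median of -0.15. For the 15 chaperones and folding enzymes taken alone, 13 were negative and the median was -0.17. In 9 of the 22 genes the knockout libraries were both lower than either control library, an order found in 15.0% of all genes tested. Derl2 alone had both knockout libraries above both control libraries, against 15.3%. The count of negative values moved with single libraries. It was 15 and 21 when control replicate 1 or 2 was left out, and 11 and 21 when knockout replicate 1 or 2 was left out. The median was -0.08, -0.20, -0.002 and -0.22 in the same order. The value of -0.002 set knockout replicate 2 alone against the control libraries, so the negative median depended on keeping knockout replicate 1. In bulk RNA fewer cells of a type and less RNA per cell cannot be told apart.

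Creld2, which encodes a secreted ER stress protein with isomerase activity, had the smallest p of the 33. It measured 136 and 131 scaled CPM in control replicates 1 and 2 and 95.4 and 112 in knockout replicates 1 and 2. Neither knockout library reached the control libraries. The log2 fold change was -0.37 ± 0.14 (SE; unadjusted p = 0.0289, adjusted p = 0.9997 in edgeR's quasi-likelihood test), and it ran from -0.49 without knockout replicate 2 to -0.26 without knockout replicate 1.

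Pdia4 and Pdia6 encode disulphide isomerases of the ER lumen. Pdia4 measured 505 and 427 scaled CPM in control and 356 and 406 in knockout islets (log2 fold change -0.29, 95% CI -0.62 to 0.04). Pdia6 measured 704 and 644 against 521 and 634, a log2 fold change of -0.22 (-0.56 to 0.11). In both genes the groups did not overlap, although knockout replicate 2 came close to control replicate 2. With 1 library left out Pdia4 ran from -0.41 (without control replicate 2) to -0.165 (without control replicate 1), and Pdia6 from -0.37 (without knockout replicate 2) to -0.086 (without knockout replicate 1). P4hb, the prototype disulphide isomerase gene, measured 960 and 820 against 655 and 880 (log2 fold change -0.21, CI -0.61 to 0.18). Here knockout replicate 1 alone was low, and without it the log2 fold change was -0.01.

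Dnajb9, an Hsp40 co-chaperone that holds Ire1 in check, varied little between libraries of a group. It measured 838 and 808 scaled CPM in control and 697 and 725 in knockout libraries. The groups did not overlap, and the log2 fold change of -0.21 (95% CI -0.50 to 0.08) stayed between -0.24 and -0.18 with any 1 library left out. Dnajc3, a co-chaperone also known as an inhibitor of eIF2alpha kinases, measured 1018 and 889 against 733 and 958. Its groups overlapped, and the log2 fold change of -0.17 (-0.55 to 0.21) was 0.01 without knockout replicate 1. Hyou1, a large Hsp70-related chaperone and exchange factor for BiP, measured 1253 and 1147 against 962 and 1164 (log2 fold change -0.17, CI -0.51 to 0.16). Again knockout replicate 1 was the low library, and the value without it was -0.04.

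Hspa5 itself was the highest in knockout replicate 2. It measured 4047 and 3581 scaled CPM in control replicates 1 and 2 and 3642 and 4426 in knockout replicates 1 and 2. The groups overlapped, with a log2 fold change of 0.08 (95% CI -0.28 to 0.44). Leaving out control replicate 2 gave -0.01, and leaving out knockout replicate 2 gave -0.07. Of the remaining chaperones, the lectin chaperone genes Calr and Canx stood at -0.04 and -0.10, Hsp90b1 at -0.07, Pdia3 at -0.06, Dnajb11 at -0.13 and Sdf2l1 at -0.18. Manf, a secreted neurotrophic ER protein, stood at 0.04. Among these 7 genes only Dnajb11 had groups that did not overlap. The 9 genes with an ERSE had log2 fold changes of -0.37 to 0.08 with a median of -0.10, and the 10 other promoter-matched genes of the chaperone arm a median of -0.19.

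Among the degradation genes, Sel1l, Syvn1 and Derl1 varied little between libraries of a group, while Herpud1 varied widely. Sel1l, the adaptor of the ubiquitin ligase Hrd1, measured 557 and 574 scaled CPM in control and 460 and 481 in knockout libraries. The groups did not overlap, and the log2 fold change of -0.27 ± 0.12 (SE, unadjusted p = 0.0653, adjusted p = 0.9997 in edgeR) stayed between -0.30 and -0.23 with any 1 library left out. Edem1, a lectin that directs misfolded glycoproteins to degradation, measured 256 and 214 against 208 and 188 (log2 fold change -0.25, CI -0.58 to 0.09, and -0.11 without control replicate 1). The groups of Edem1 did not overlap. Syvn1, the gene for Hrd1 itself, stood at -0.09, and the derlin genes Derl1, Derl2 and Derl3 at -0.09, 0.11 and -0.17.

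Herpud1, a membrane protein that recruits substrates to the Hrd1 complex, had the widest spread of the chaperone arm. It was described in full because of that spread, after its values were seen, as was Ppp1r15a. Herpud1 measured 999 and 446 scaled CPM in control replicates 1 and 2 and 688 and 1016 in knockout replicates 1 and 2. The libraries of the control group differed by 2.24 times, more than the groups did, and control replicate 2 was the low library. The log2 fold change was 0.24 (95% CI -1.05 to 1.53), and it was 0.93 without control replicate 1. Leaving out control replicate 2 gave -0.23, and leaving out knockout replicate 2 gave -0.07.

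None of the sensors passed the test, and neither did Xbp1. Atf6 measured 465 and 417 scaled CPM in control and 448 and 427 in knockout islets (log2 fold change -0.01, 95% CI -0.31 to 0.29). Ern1 measured 362 and 383 against 350 and 314, a log2 fold change of -0.17 (-0.47 to 0.14), and its groups did not overlap. Leaving out knockout replicate 1 gave -0.24 for Ern1, and leaving out knockout replicate 2 gave -0.093. Xbp1 measured 474 and 431 against 453 and 494, a log2 fold change of 0.07 (-0.24 to 0.37), with overlapping groups. For Atf6, leaving out control replicate 1 gave 0.07 and leaving out knockout replicate 2 gave 0.02. For Xbp1, leaving out control replicate 2 gave -0.001. Eif2ak3, the gene for Perk, varied within the control group, at 287 and 169 scaled CPM against 233 and 203 in knockout libraries. Its log2 fold change of -0.06 (-0.64 to 0.51) became 0.37 when control replicate 1 was left out and 0.03 when knockout replicate 2 was. Wfs1, an ER membrane protein whose loss causes Wolfram syndrome with diabetes, measured 192 and 163 against 166 and 162 (log2 fold change -0.11, CI -0.44 to 0.21, and 0.01 without control replicate 1). Control replicate 1 alone was higher than the other 3 libraries.

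**Figure D3:**
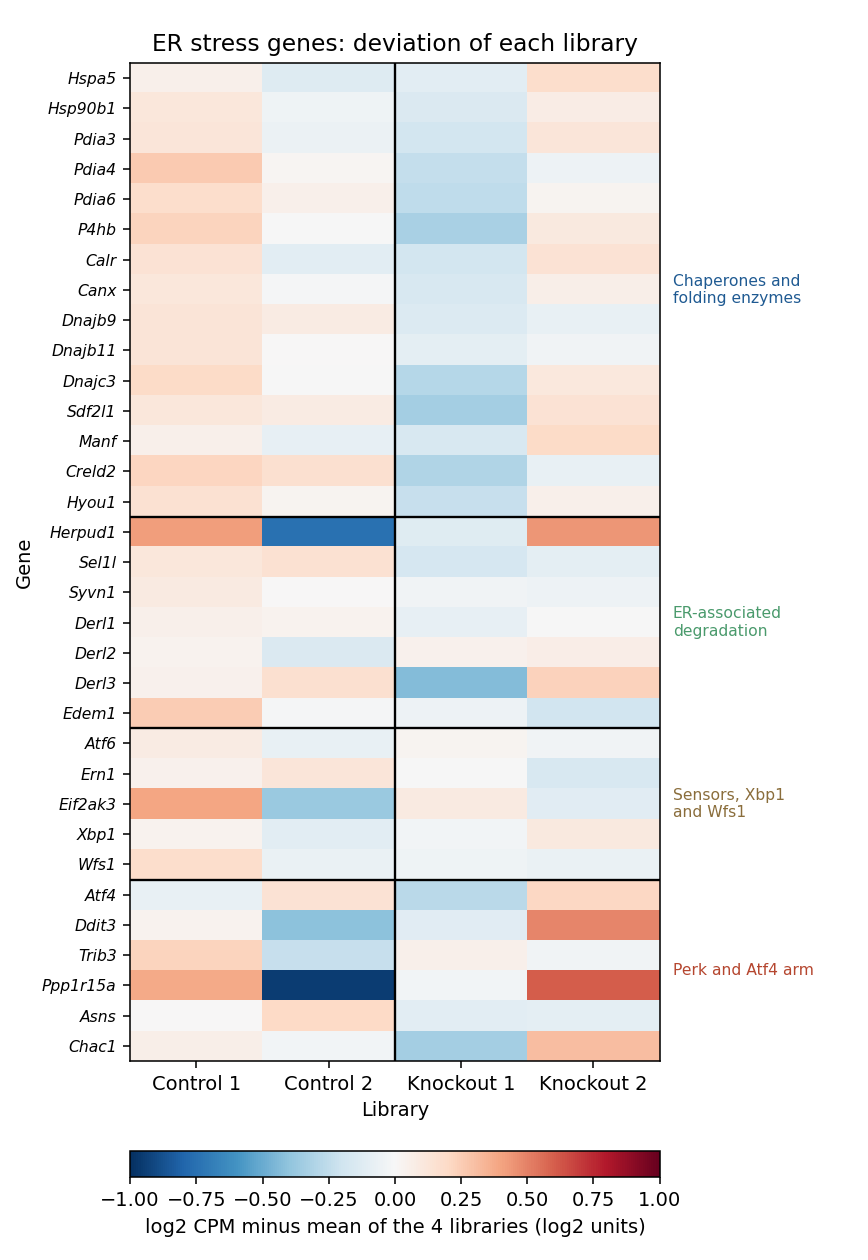
Deviation of each library from the mean of the 4 libraries, in log2 units, for the 33 genes (rows, by function) in 2 control and 2 knockout libraries (columns). In 14 of the 15 chaperones and folding enzymes knockout replicate 1 is lowest, while Herpud1, Ddit3 and Ppp1r15a are lowest in control replicate 2 and highest in knockout replicate 2.

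The Perk and Atf4 arm had 3 positive and 3 negative values, with a median of 0.002. Atf4 measured 316 and 369 scaled CPM in control and 276 and 384 in knockout libraries. The knockout libraries lay on either side of the control libraries, and the log2 fold change of -0.05 (95% CI -0.47 to 0.36) became 0.06 when control replicate 2 was left out and 0.17 when knockout replicate 1 was. Ddit3, the gene for the stress transcription factor Chop, measured 102 and 75.5 against 92.5 and 141. Knockout replicate 2 was high, and the groups overlapped. The log2 fold change of 0.39 (-0.16 to 0.94; unadjusted p = 0.137, adjusted p = 0.9997 in edgeR) was 0.06 without knockout replicate 2.

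Ppp1r15a encodes Gadd34, the phosphatase subunit that reverses the translational block set by Perk. It measured 150 and 59.5 scaled CPM in control replicates 1 and 2 and 113 and 175 in knockout replicates 1 and 2. Control replicate 2 was low and the groups overlapped. The log2 fold change of 0.46 (95% CI -1.15 to 2.07) was 1.27 without control replicate 1 and -0.06 without control replicate 2. Asns, the asparagine synthetase gene, measured 213 and 244 against 197 and 199, a log2 fold change of -0.21 (-0.52 to 0.11), and it was the only gene of the arm whose groups did not overlap. Its value was -0.30 when control replicate 1 was left out and -0.10 when control replicate 2 was. Trib3, a pseudokinase gene, stood at -0.004, and Chac1, which encodes a glutathione-degrading enzyme, at 0.01.

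Ddit3, Ppp1r15a and Herpud1 followed the order of the acinar and immediate-early sums, from control replicate 2 through knockout replicate 1 and control replicate 1 to knockout replicate 2. The sum of the endocrine markers had this order too, but its single genes differed. Chga followed it, while Ins1, Ins2 and Iapp were lowest in knockout replicate 1 and Gcg and Sst highest in control replicate 1. Of the 33 genes 5 had the order of the acinar sums (Hspa5, Herpud1, Xbp1, Ddit3 and Ppp1r15a), or 15.2%, against 7.60% of all genes tested. Atf3, an Atf4 target that immediate-early stimuli also raise, had it as well, at 58.3 and 6.16 scaled CPM in control and 34.9 and 138 in knockout libraries. The part of acinar RNA and of handling stress in the values of these genes was not tested. Markers of plasma cells, another cell type with abundant ER chaperones, were near the floor, with 6 genes summing to between 1.30 and 2.70 scaled CPM.

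**Figure D4:**
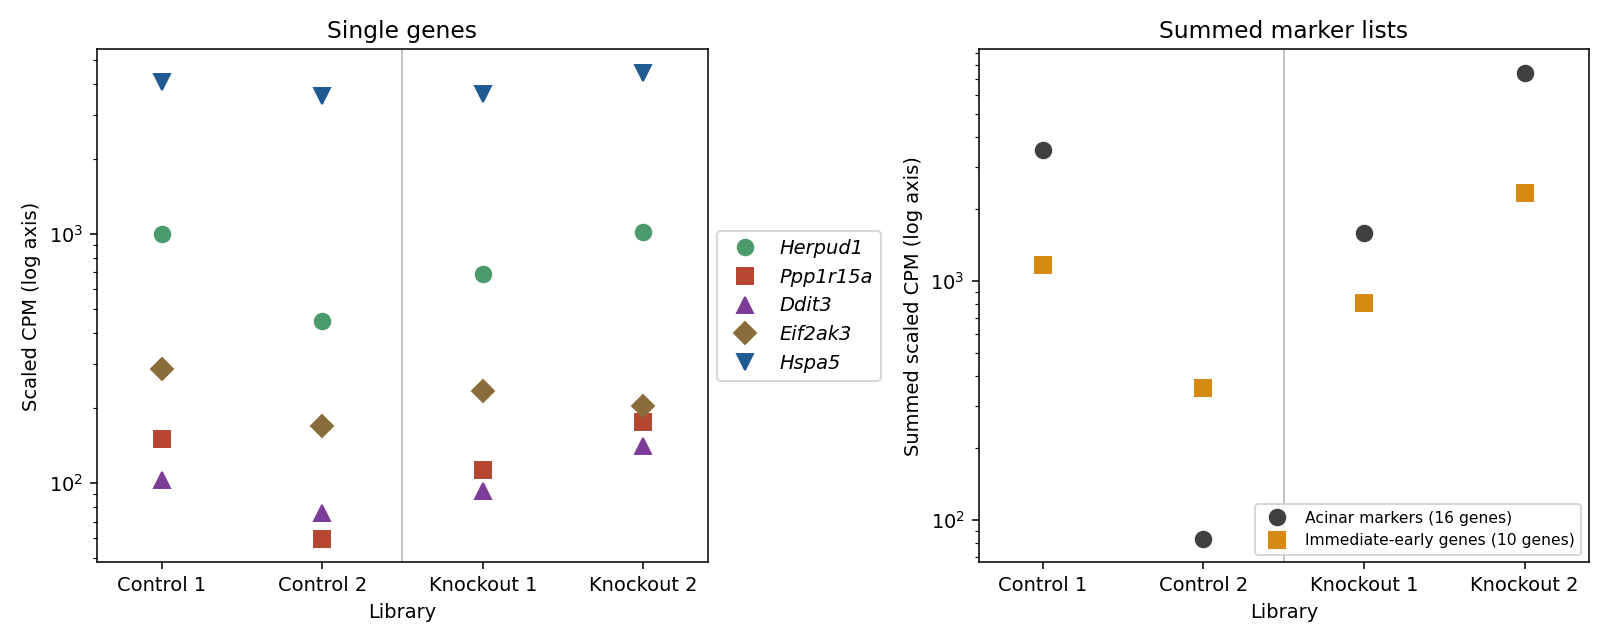
Scaled CPM of 5 genes (left) and summed scaled CPM of the 16 acinar markers and 10 immediate-early genes (right) in each of the 4 libraries, both on log axes. Herpud1, Ppp1r15a, Ddit3 and both sums are lowest in control replicate 2 and highest in knockout replicate 2, while Hspa5 moves in the same order over a narrower range.

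The 2 arms were then set against each other within each library. The mean log2 scaled CPM of the chaperone arm exceeded that of the Perk and Atf4 arm by 1.99 and 2.13 in control replicates 1 and 2, and by 1.90 and 1.76 in knockout replicates 1 and 2. The gap was therefore smaller in both knockout libraries, at 1.83 ± 0.0981 against 2.06 ± 0.102 (SD, n = 2 each), a difference of -0.23 on the log2 scale. Without Ddit3 and Ppp1r15a, a choice made after their values were seen, the gap was 1.998 and 1.86 in control and 1.89 and 1.87 in knockout libraries, and the groups overlapped, with a difference of -0.049. As a difference of median log2 fold changes, the chaperone arm lay at -0.15 relative to the Perk and Atf4 arm, and between -0.24 and -0.13 with 1 library left out. On that measure it was -0.12 without Ddit3 and Ppp1r15a, so leaving out these genes moved the difference of means much more than the difference of medians. No p is given, because the value is a score over chosen genes. The contrast in means thus rested largely on Ddit3 and Ppp1r15a. As medians, the contrast did not extend to Atf4 targets in general. The 33 other tested Atf4 targets, described below, had a median log2 fold change of -0.149 with 26 negative. The median of the chaperone arm was -0.152.

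**Figure D5:**
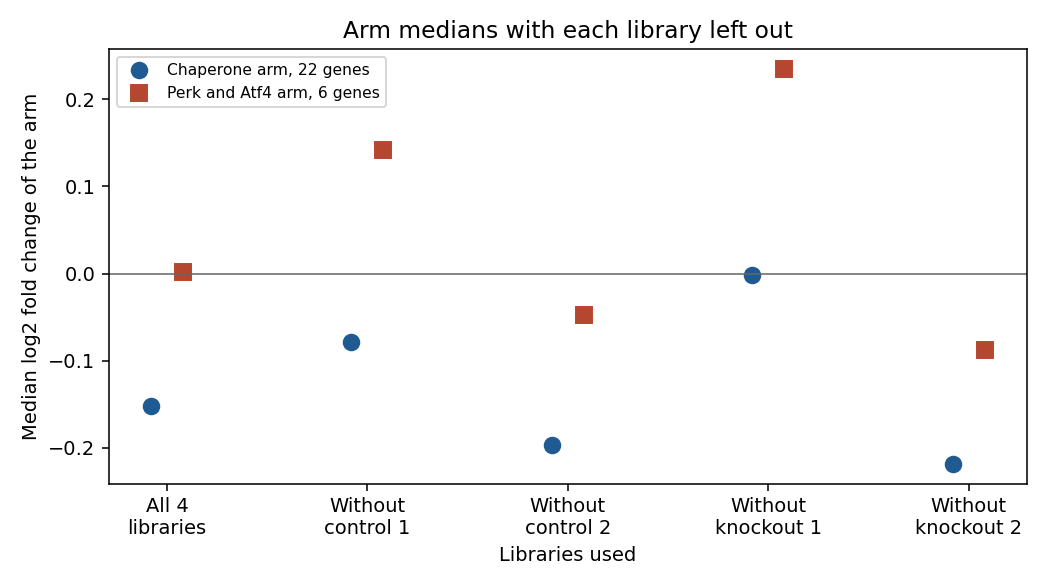
Median log2 fold change, knockout against control, of the chaperone arm (circles, 22 genes) and of the Perk and Atf4 arm (squares, 6 genes), with all 4 libraries and with each left out. The chaperone median runs from -0.22 to -0.002 and that of the Perk and Atf4 arm from -0.09 to 0.23, with the circle below the square each time.

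Other genes of the secretory pathway were read from lists fixed beside the members. Of 17 genes of the translocon and of signal peptide processing 16 were negative (median -0.17), and 0 were called. In 7 of them the knockout libraries were both lower than either control library, against 15.0% of all genes. Sec61a1, the pore subunit of the translocon, measured 342 and 338 scaled CPM in control and 295.3 and 295.3 in knockout islets (log2 fold change -0.20). Libraries of each group were nearly equal for this gene and the groups did not overlap. The signal peptidase genes Spcs1 and Sec11c stood at -0.27. Among 29 further folding and quality-control genes 23 had negative values (median -0.09), with 0 called and 2 lower at an unadjusted p under 0.05. These were the disulphide isomerase gene Pdia5 at -0.50 and the mannosidase-like gene Edem3 at -0.34, while Creld1 stood at 0.40.

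Atf4 is known to raise many further genes beyond the 6 of the arm. Of 33 tested genes of amino acid supply, tRNA charging and stress signalling 26 were negative, and their median was -0.15. None was called, and in 15 the knockout libraries were both lower than either control library (15.0% of all genes). At an unadjusted p under 0.05 in edgeR, 0 were higher and 4 lower (1.55% and 1.96% of all genes). Those 4 were the arginine transporter gene Slc7a3 (13 and 23 counts in control, 3 and 4 in knockout), and all 3 genes of serine synthesis. Psat1, the aminotransferase of that pathway, measured 46.0 and 49.4 scaled CPM in control and 32.1 and 30.5 in knockout libraries. The groups were apart, with a log2 fold change of -0.61 ± 0.14 (SE, unadjusted p = 0.00248, adjusted p = 0.9997 in edgeR). Psph stood at -0.44 and Phgdh at -0.40, both with groups that did not overlap. Asns had the same arrangement. Phgdh and Atf3 were named after their values were seen.

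Of Eif2s1, which encodes eIF2alpha, and 4 other kinase and phosphatase genes that act on it, 0 of 5 were called. Eif2ak2, the interferon-induced kinase Pkr, measured 44.4 and 59.5 scaled CPM in control and 42.5 and 30.1 in knockout libraries (log2 fold change -0.51). The phosphatase subunit gene Ppp1r15b stood at 0.25, with control replicate 2 low at 155 beside 267, 223 and 278 in the other 3 libraries, and Eif2s1 at -0.19. Cytosolic heat shock genes had 8 positive and 4 negative values (median 0.08), with 0 called. In 3 of the 12 genes, Hspa1a and Hspa1b among them, both knockout libraries were above both control libraries, against 15.3% of all genes. In 1 of the 12 both were below (15.0%). Hspa1a measured 32.7 and 8.29 scaled CPM in control and 37.9 and 125 in knockout libraries, and Hspa1b 42.0 and 8.40 against 55.7 and 135. Knockout replicate 2 was the high library and control replicate 2 the low one in both, as for the immediate-early sum. These are near-identical copies among which reads can be split. Hspb1 stood at -0.32. Of 6 mRNAs known as substrates of Ire1 decay 3 were negative and 3 positive (median -0.07), with 0 called. The standard substrate Bloc1s1 stood at 0.30 (44 and 58 counts in control, 66 and 54 in knockout libraries). In scaled CPM it measured 5.21 and 6.16 against 6.85 and 7.16, both knockout libraries above both control libraries (15.3% of all genes). The opposite arrangement was found in 2 of the 6 mRNAs (15.0%). The matrix genes Sparc and Col6a1 stood at -0.65 and -0.97, with Col6a1 at only 32 and 52 against 16 and 24 counts. Both matrix genes were lower at an unadjusted p under 0.05 in edgeR (1.96% of all genes). Sparc and Col6a1 are also genes of stellate cells, whose 5 tested markers had a median of -0.60.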

How the data were processed

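The authors deposited raw counts per Ensembl gene for 4 libraries. HISAT2, featureCounts and GRCm39 are named in the submitters' processing notes. For versions, strand setting and annotation release: not given in the sources used here. Symbols and exon lengths came from GENCODE M21 on GRCm38, matching 52403 of 52636 identifiers. Promoter sequences came from RefSeq on GRCm38.p6. Counts were filtered with filterByExpr (minimum count 10), scaled by trimmed means and tested with edgeR 4.0.16 (robust quasi-likelihood, two-sided, no covariate) under R 4.3.3, with Benjamini-Hochberg adjustment over 16924 genes. DESeq2 1.42.0 and limma 3.58.1 (voom) were alternatives, besides other scalings, no filter, a replicate block and leaving out each library. Libraries of a group differed beyond sampling noise, with chi-square over degrees of freedom of 12.9 (control) and 13.3 (knockout) for genes with 20 or more counts in both libraries together. The pipeline was tested on simulated data for 16924 genes, where 14 of 133 calls were false. Members and lists were chosen with earlier results of these data known. All members are accounted for. The 12 of smallest p and 8 fixed genes (Hspa5, Xbp1, Atf4, Ddit3, Atf6, Ern1, Eif2ak3 and Wfs1) are given in full, and up to 3 genes per other list are named by smallest p. Atf3 and Phgdh fall outside that rule. Since the strand setting is unknown, values of genes with an overlapping antisense partner are uncertain.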

Additional observations from a re-analysis of the deposited data

How the results depend on the processing

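No member was called under any alternative run. The count over all genes was 1, and it was 62 with no low-count filter, 6 with DESeq2, 6 with the replicate block and between 1 and 48 with 1 library left out (48 without control replicate 1). In the labels, same-numbered libraries share only a number. Their deviations correlated at -0.31 over 15018 genes, which cannot settle whether they were paired. The block changed no call among the members, and the crossed pairing, chosen after seeing the data, called 2 genes over all. The chaperone arm median ran from -0.22 to -0.0017 with 1 library left out. Its negative members ran from 11 to 21. Members with every remaining knockout library below every remaining control library numbered 9 to 19. That count cannot fall when a library is left out, and the share of all genes was not computed for it. Where a group was left with 1 library, that library was assumed to vary like the others. Other definitions of the chaperone arm left its median between -0.17 and -0.13. Outside the left-out libraries 2 members changed sign: Trib3 was 0.0055 with no filter, 0.016 in limma-voom and 0.0087 with the replicate block, and Chac1 was -0.032 in limma-voom and -0.024 with the replicate block. With 1 library left out the log2 fold change ran from -0.31 to 0.17 for Atf4, from -0.089 to 0.067 for Atf6, from -0.21 to 0.12 for Calr, from -0.22 to 0.012 for Canx, from -0.35 to 0.30 for Chac1, from -0.53 to 0.13 for Derl3, from -0.38 to 0.0099 for Dnajc3, from -0.40 to 0.37 for Eif2ak3, from -0.23 to 0.93 for Herpud1, from -0.19 to 0.042 for Hsp90b1, from -0.067 to 0.22 for Hspa5, from -0.15 to 0.21 for Manf, from -0.22 to 0.085 for Pdia3, from -0.060 to 1.27 for Ppp1r15a, from -0.44 to 0.045 for Sdf2l1, from -0.21 to 0.23 for Trib3, from -0.23 to 0.0093 for Wfs1 and from -0.0013 to 0.14 for Xbp1. The cause was not tested. Other members kept their sign.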
